A study of Mus musculus with 60 samples.

Results

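Neural commitment was followed through 8 genes, Sox1, Sox3, Sox11, Sox21, Pax6, Neurog2, Nes and Tubb3, out of 55487 genes counted in 60 RNA-seq libraries of mouse embryonic stem cells (ESCs). The genes were taken by name, and their symbols were matched to the gene identifiers of the count tables in all 20 groups. All cells were E14JU ESCs in which POLE4 carried a dTAG degron, a tag through which the compound dTAG leads to removal of the protein. The groups named Ctrl received DMSO and those named dPOLE4 received 1 µM dTAG. The background called WT was POLE4-dTAG with unmutated MCM2, and the background called MCM2-2A was POLE4-dTAG with mutated MCM2, each a single clone, so that clone and mutation cannot be told apart. In the retinoic acid (RA) experiment the cells were treated for 24 h in medium with serum and LIF (T0) and then kept in RA without LIF for 12, 24 or 60 h (T12, T24, T60), with 3 libraries in each of 16 groups. These hours follow the sample titles and the series' design, whereas the treatment text of the labels names 24, 48 and 60 h of RA. A separate experiment held 4 groups of 3 libraries from cells treated for 96 h in self-renewing medium without RA.

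POLE4 is a histone-fold subunit of DNA polymerase epsilon and MCM2 is a subunit of the replicative helicase. Both bind histones at the replication fork, and parental histones are passed on by POLE4 to the leading strand and by MCM2 to the lagging strand. RA binds nuclear receptors that switch on their target genes, and ESCs deprived of LIF and given RA leave pluripotency for neural and extra-embryonic endoderm fates. Sox1 and Sox3 are SoxB1 factors that hold cells in the neural progenitor state, with Sox1 among the earliest markers of neuroectoderm. Sox21 is a SoxB2 factor that counteracts SoxB1 proteins, and Sox11 is a SoxC factor of committed precursors. Pax6 is a paired-box and homeobox factor of neural progenitors, and Neurog2 is a proneural factor that drives neuronal differentiation. Nes encodes nestin, the intermediate filament of neural progenitors, and Tubb3 encodes the class III β-tubulin of neurons.

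All 8 are protein-coding genes of GRCm38. Sox1 (ENSMUSG00000096014, chr8:12395295-12400126, plus strand), Sox3 (ENSMUSG00000045179, chrX:60891366-60893430, minus strand), Sox11 (ENSMUSG00000063632, chr12:27334264-27342574, minus strand) and Sox21 (ENSMUSG00000061517, chr14:118233232-118237030, minus strand) have a single annotated exon each. Pax6 (ENSMUSG00000027168, chr2:105668900-105697364, plus strand) has 26 annotated transcripts. Neurog2 (ENSMUSG00000027967, chr3:127633135-127635631) and Nes (ENSMUSG00000004891, chr3:87971078-87980451) lie on the plus strand of chromosome 3, and Tubb3 (ENSMUSG00000062380, chr8:123411424-123422015) lies on the plus strand of chromosome 8. Another annotated gene shares the place of 4 members, and whether the counting used strand is not given in the sources used here. Tubb3 lies inside Gm20388 on the same strand with no shared exon, and Gm20388 held 57250 counts over all libraries against 83671 for Tubb3. The genes overlapping Sox1 (Sox1ot, Gm25239), Sox21 (Gm4675) and Pax6 (Pax6os1) each held at most 4.66% of the member's counts.

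Promoter sequence was at hand in RefSeq (GRCm38.p6) for 7 of the 8 members, at 8 promoters, and not for Sox3. Windows of 250 bases before the start are shown for Sox11, Sox21 and the upstream promoter of Pax6, 3 of the genes that were lower in MCM2-2A ESCs before RA. Capitals mark matches on either strand to the CCAAT box, to the GC box as GGGCGG or to the E-box, spelled CANNTG, and no marked match overlaps another.
Sox11, chr12:27342719-27342968, minus strand: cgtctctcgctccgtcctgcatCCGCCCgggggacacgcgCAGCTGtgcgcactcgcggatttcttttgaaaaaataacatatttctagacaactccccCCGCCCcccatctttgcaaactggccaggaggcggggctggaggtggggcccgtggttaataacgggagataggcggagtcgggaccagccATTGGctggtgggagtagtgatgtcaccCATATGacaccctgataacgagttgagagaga
Sox21, chr14:118237031-118237280, minus strand: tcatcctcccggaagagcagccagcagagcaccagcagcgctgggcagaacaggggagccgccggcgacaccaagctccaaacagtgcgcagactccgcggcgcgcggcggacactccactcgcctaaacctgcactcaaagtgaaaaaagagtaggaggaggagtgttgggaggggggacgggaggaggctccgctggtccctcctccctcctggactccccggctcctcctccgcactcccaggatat
Pax6, chr2:105668646-105668895, plus strand: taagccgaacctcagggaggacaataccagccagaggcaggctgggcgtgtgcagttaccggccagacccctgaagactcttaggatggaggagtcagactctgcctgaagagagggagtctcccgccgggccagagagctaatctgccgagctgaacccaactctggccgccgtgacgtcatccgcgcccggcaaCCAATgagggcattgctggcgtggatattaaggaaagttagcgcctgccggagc
The 3 windows lie above the median in GC, at 58.0% for Sox11, 65.2% for Sox21 and 60.8% for Pax6. The median was 52.4% and the upper quartile 61.2% over 32851 promoters. The 3 windows held 17, 17 and 15 CpG dinucleotides against a median of 6.0. The downstream promoter of Pax6, not shown, had 47.6% GC. Sox11 had E-boxes 210 and 32 bases before its start, CCAAT at 60 bases and GGGCGG at 228 and 151 bases, Pax6 had CCAAT at 54 bases, and Sox21 had none of them. These letters are common, since CANNTG occurs in 66.2%, CCAAT in 33.8% and GGGCGG in 32.7% of all promoters. The half-site AGGTCA, found in 14.0% of all promoters, was in none of the members' 8 windows, and neither were its direct repeats spaced by 5 bases (DR5, 0.0883% of promoters) or by 2 bases (DR2, 0.174%).

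Library totals were 10461077 to 46609151 counts in the RA experiment and 7126100 to 23598266 at 96 h. Counts per library ran from 18 to 508 for Sox1, 54 to 620 for Sox3, 97 to 1751 for Sox11, 23 to 760 for Sox21, 22 to 469 for Pax6, 204 to 6584 for Nes and 111 to 5189 for Tubb3. Neurog2 had 0 to 9 counts, with 22 of 60 libraries at 0, where a count of 0 still allows up to 3. It stayed below the filter on low counts in every comparison, so 7 of the 8 members were tested. Levels are given as CPM, read counts scaled to library size, with TMM factors within each experiment and listed for replicates 1, 2 and 3. A gene was called differentially expressed (DE) at an adjusted p under 0.01 in edgeR's quasi-likelihood test together with a log2 fold change beyond 0.58 in size, and fold changes below are on the log2 scale with their standard error (SE). The labels do not say whether the replicates were separate cultures, so p-values measure the spread between these libraries only.

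The cells carried pluripotency markers at T0, where 6 such genes summed to 2566 to 2899 CPM in every library. The dTAG compound acts on the POLE4 protein, so Pole4 RNA checks nothing about depletion. Pole4 RNA was 21.9 to 59.1 CPM in WT and 17.8 to 38.3 CPM in MCM2-2A libraries of the RA experiment. By T60 in Ctrl, all 6 RA-response genes and all 8 endoderm markers were DE and higher and all 6 pluripotency genes were lower. Of all tested features in this comparison, 26.9% were DE and higher and 23.7% DE and lower. The pluripotency sum was 150.3 to 181.4 CPM at T60 in Ctrl. In such bulk libraries, fewer cells of a type and less RNA per cell cannot be told apart.

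**Figure D1:**
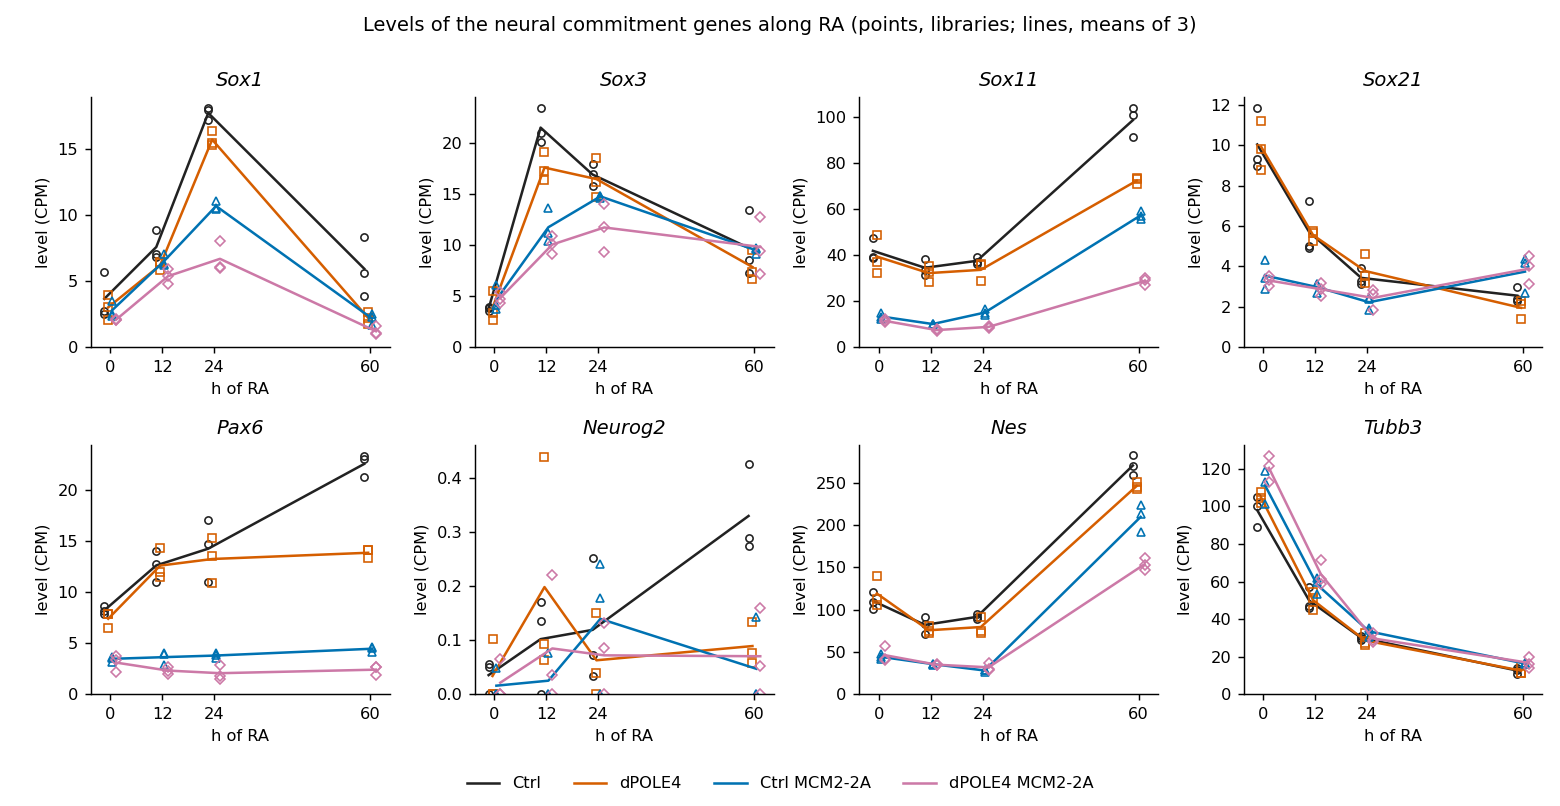
Level of each member in CPM (linear axis from 0, own scale per gene) in every library of the RA experiment against hours of RA, with 1 point per library and lines through the means of 3 libraries of Ctrl, dPOLE4, Ctrl MCM2-2A and dPOLE4 MCM2-2A. Sox1 peaks at T24 at 17.69 CPM in Ctrl, Sox11 and Nes reach their highest group means in Ctrl at T60, and Tubb3 falls in all 4 kinds of cells.

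The comparison of each RA time with T0 asked which members respond to RA. In Ctrl, 5, 5 and 6 of the 7 tested members were DE at T12, T24 and T60, where 11.3%, 21.8% and 50.6% of all tested features were DE. In dPOLE4 the counts were 6, 5 and 6 with 11.7%, 19.2% and 48.1% of all features. Ctrl MCM2-2A had 3, 4 and 4 against 8.65%, 23.9% and 47.5%, and dPOLE4 MCM2-2A had 4, 3 and 4 against 7.79%, 19.6% and 42.2%. At T60 the members' count stands against a background in which 42.2% to 50.6% of features were DE. The members' median log2 fold change at T60 was 1.22 in Ctrl, 0.86 in dPOLE4, 0.39 in Ctrl MCM2-2A and 0.20 in dPOLE4 MCM2-2A, beside medians of -0.0134, -0.0111, -0.00295 and -0.0317 over all features. The 3 comparisons within a kind of cell share their T0 libraries. From T12 to T24, 2 members were DE in Ctrl, dPOLE4 and Ctrl MCM2-2A and 1 in dPOLE4 MCM2-2A, beside 6.97%, 6.3%, 8.83% and 7.75% of all features. From T24 to T60 the counts were 6, 6, 6 and 4 beside 35.7%, 32%, 31.6% and 25.3%.

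Sox1 showed a transient wave. In Ctrl it went from 5.67, 2.509 and 2.732 CPM at T0 to 7.025, 8.877 and 6.772 CPM at T12 and 17.13, 17.9 and 18.03 CPM at T24. At T60 it was back at 8.338, 5.575 and 3.839 CPM. The T24 libraries stood above all others, whereas the T60 values overlapped those of T0. The rise was 1.05 at T12 (SE 0.252, adjusted p = 0.00688 by edgeR) and 2.29 at T24 (SE 0.193, adjusted p = 1.75e-07), followed by a fall of -1.51 from T24 to T60 (SE 0.169, adjusted p = 1.86e-06). Sox1 at T60 against T0 was 0.73 (SE 0.303, adjusted p = 0.0394) and was not DE, but it passed both thresholds with no filter (0.71, adjusted p = 0.000448) and with all libraries in the fit (0.76, adjusted p = 0.00342). The same rise and fall was called in the other cells, with 2.41, 1.96 and 1.66 at T24 against T0 and -2.84, -2.28 and -2.46 from T24 to T60 in dPOLE4, Ctrl MCM2-2A and dPOLE4 MCM2-2A. The T12 call in Ctrl was lost without Ctrl T12 replicate 1 (1.11, adjusted p = 0.0147) or 2 (0.94, adjusted p = 0.0114) and without Ctrl T0 replicate 2 (0.85, adjusted p = 0.0363) or 3 (0.87, adjusted p = 0.0443).

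Sox3 rose early and stayed up. In Ctrl it moved from 3.913, 3.877 and 3.491 CPM at T0 to 21.04, 23.49 and 20.09 CPM at T12, a 5.73-fold difference (log2 2.52, SE 0.114, adjusted p = 1.49e-08). It was 16.99, 15.83 and 17.98 CPM at T24 and 13.45, 7.22 and 8.542 CPM at T60, still apart from T0. Sox3 was DE and higher in 12 of 12 comparisons of an RA time with T0, by 1.00 to 2.52. The fall from T24 to T60 was called in Ctrl (-0.74, adjusted p = 0.000796), dPOLE4 (-1.09, adjusted p = 1.29e-05) and Ctrl MCM2-2A (-0.63, adjusted p = 1.28e-05). In Ctrl it was under the fold threshold without Ctrl T60 replicate 2 (-0.57), and in Ctrl MCM2-2A it was at the threshold with no filter (-0.58).

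Sox21 fell in WT cells under RA. Its level in Ctrl was 9.299, 11.86 and 8.954 CPM at T0, 4.989, 7.212 and 4.894 CPM at T12, 3.27, 3.893 and 3.114 CPM at T24 and 2.374, 2.285 and 2.975 CPM at T60. The T0 libraries did not overlap with any later time, and the fall at T60 was -2.01 (SE 0.181, adjusted p = 9.06e-08). In dPOLE4 the fall at T60 was -2.37 (SE 0.174, adjusted p = 1.48e-08). In Ctrl MCM2-2A, Sox21 was 4.325, 3.443 and 2.854 CPM at T0 and 4.175, 2.686 and 4.346 CPM at T60, with overlapping libraries. Its means in between were 2.971 CPM at T12 and 2.219 CPM at T24, neither DE against T0. From T24 to T60 it rose by 0.71 (adjusted p = 0.00905 by edgeR). That rise was lost in 5 of 6 fits with a library left out and in 2 alternatives. The T12 call in Ctrl (-0.83, adjusted p = 0.00248) was lost without Ctrl T12 replicate 1 (-0.73, adjusted p = 0.0154) or Ctrl T0 replicate 2 (-0.70, adjusted p = 0.0162).

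Sox11 and Nes rose late. Sox11 in Ctrl was 47.29, 39.17 and 38.75 CPM at T0, 37.05, 36.05 and 39.08 CPM at T24 and 100.6, 103.6 and 91.08 CPM at T60, and only the T60 libraries stood apart from T0 on the higher side. It was 2.33-fold higher at T60 (log2 1.22, SE 0.0842, adjusted p = 4.28e-09), with 0.86 in dPOLE4, 2.13 in Ctrl MCM2-2A and 1.31 in dPOLE4 MCM2-2A, all DE. Nes in Ctrl was 121.3, 100.9 and 109.5 CPM at T0, 83.35, 91.79 and 71.47 CPM at T12, 89.13, 94.92 and 90.97 CPM at T24 and 282.3, 258.9 and 270.3 CPM at T60. Its levels at T12 and T24 lay below all T0 libraries (-0.43 and -0.27, adjusted p = 0.00356 and 0.00199), under the fold threshold. Early falls of Nes were DE at T12 in dPOLE4 (-0.66, adjusted p = 7.49e-05) and at T24 in Ctrl MCM2-2A (-0.63, adjusted p = 8.92e-06). They were under the fold threshold without dPOLE4 T0 replicate 1 (-0.52) and without Ctrl MCM2-2A T24 replicate 3 (-0.58), respectively. At T60 Nes was higher by 1.27 in Ctrl (SE 0.0701, adjusted p = 3.36e-10), 1.03 in dPOLE4, 2.24 in Ctrl MCM2-2A and 1.70 in dPOLE4 MCM2-2A. Sox11 in dPOLE4 MCM2-2A first fell by 0.61 at T12 (adjusted p = 0.00184). That fall was lost without dPOLE4 MCM2-2A T12 replicate 1 (-0.59, adjusted p = 0.0117) or 2 (-0.59, adjusted p = 0.0114) and without dPOLE4 MCM2-2A T0 replicate 1 (-0.58).

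Pax6 rose in WT cells. In Ctrl it was 7.882, 8.154 and 8.6 CPM at T0, 11, 14.06 and 12.75 CPM at T12, 10.99, 17.06 and 14.67 CPM at T24 and 23.31, 23.03 and 21.21 CPM at T60. All later libraries lay above T0, and the rise was 0.61 at T12 (adjusted p = 0.0018), 0.79 at T24 (adjusted p = 0.000287) and 1.44 at T60 (SE 0.104, adjusted p = 7.78e-09). The T12 call was lost without Ctrl T12 replicate 2 (0.52), Ctrl T0 replicate 1 (0.58, adjusted p = 0.0101) or Ctrl T0 replicate 2 (0.60, adjusted p = 0.01). In dPOLE4 the rise at T60 was 0.87 (SE 0.108, adjusted p = 3.93e-06). Pax6 was not DE against T0 in any of the 6 comparisons of MCM2-2A cells by edgeR or DESeq2. Its levels there were 3.628, 3.596 and 3.22 CPM at T0 and 4.65, 4.563 and 4.193 CPM at T60 in Ctrl MCM2-2A, and 3.392, 3.736 and 2.22 CPM at T0 and 2.657, 1.915 and 2.706 CPM at T60 in dPOLE4 MCM2-2A.

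Tubb3 fell steadily in all cells. In Ctrl it went from 88.8, 104.8 and 100.1 CPM at T0 through 45.88, 56.84 and 46.95 CPM at T12 and 31.18, 30.12 and 29.03 CPM at T24 to 14.3, 13.16 and 10.65 CPM at T60. No library of 1 time overlapped another time. The fall at T60 was 7.71-fold (log2 -2.95, SE 0.0996, adjusted p = 1.57e-12), and Tubb3 was DE and lower in 12 of 12 comparisons, by -3.07 to -0.89. How far reads of Gm20388 enter these counts was not tested. Neurog2 stayed at trace level, at 7, 3 and 3 counts (0.426, 0.274 and 0.288 CPM) in Ctrl at T60, its highest group mean, and at 9 counts in the highest single library, dPOLE4 T12 replicate 2.

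**Figure D2:**
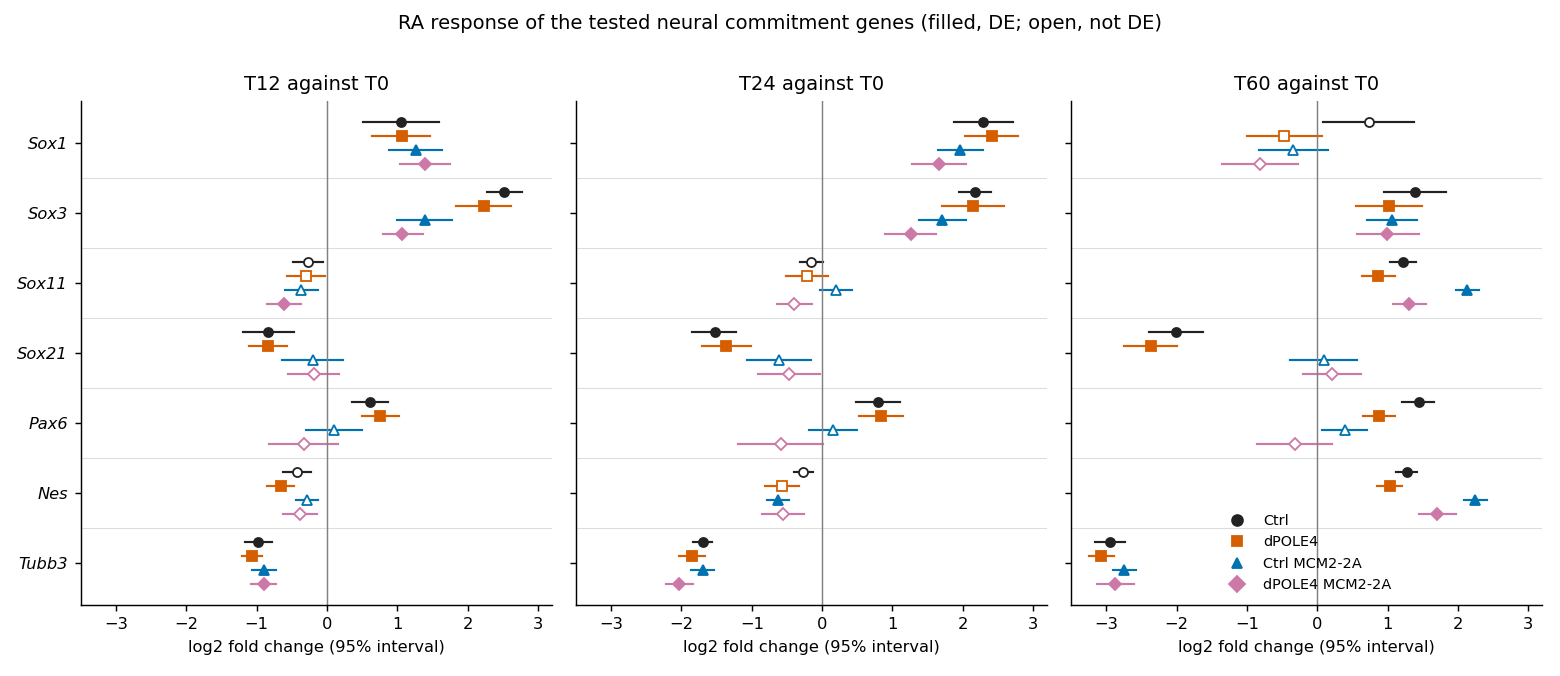
Log2 fold change of the 7 tested members at T12, T24 and T60 against T0 in Ctrl, dPOLE4, Ctrl MCM2-2A and dPOLE4 MCM2-2A, with bars for the 95% interval of the edgeR fit and filled points for DE. Tubb3 lies below 0 and Sox3 above 0 throughout, Sox1 is highest at T24, and Sox11 and Nes are DE above 0 at T60 and at no earlier time.

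Other genes of the neural lineage, taken from lists on which earlier results of these data were known, moved in both directions in Ctrl at T60, where 26.9% of all features were DE and higher and 23.7% DE and lower. Among the 3 tested relatives of the Sox members, Sox4 (2.81) and Sox12 (0.76) were higher and Sox2 (-3.45), which pluripotent cells also use, was 10.9-fold lower. Of 12 tested patterning factors of 19 listed, 8 were higher and 2 lower, led by Irx3 at 1.58 CPM in T0 and 51.0 CPM in T60 (log2 4.98). Zic1 (3.66) and Nkx6-1 (2.99) rested on few T0 counts. Of 9 tested proneural and Notch genes, 2 were higher and 4 lower, with Neurod1 and Neurog3, both proneural factors, changed by -4.18 and -2.99. Of 5 tested progenitor structure genes, 4 were higher and 0 lower, among them the cadherin Cdh2 (2.61), the RNA-binding protein Msi1 (2.36) and Prom1 (1.30). Of 15 tested neuron structure genes, 5 were higher and 8 lower, with Dcx, a microtubule protein of migrating neurons, at 4.33 from few counts and the neuronal genes Stmn2 and Elavl3 at -3.23 and -2.43. The medians of these 5 lists, 0.76, 2.04, -0.11, 1.30 and -0.64, stood beside -0.0134 for all features.

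The effect of POLE4 depletion on the members was compared at each time within each background. No member was DE at T0 in either background by edgeR or DESeq2, and 0 of the 14 values had an unadjusted p under 0.05. In WT at T0 edgeR called 0% of 17792 features (2069 at an unadjusted p under 0.05, 0 by DESeq2), and in MCM2-2A it called 0.0715%. The 95% intervals of the 14 members' values at T0 lay between -0.96 and 0.50. At T12 again 0 members were DE by either tool, with 3 of 14 at an unadjusted p under 0.05, 0% of features in WT (1150 unadjusted, 2 by DESeq2) and 0.404% in MCM2-2A. In WT at T24, 0 members were DE by either tool, 2 of 7 had an unadjusted p under 0.05, and 0% of features were called (1451 unadjusted, 17 by DESeq2).

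At T60 in WT, Sox1 and Pax6 were lower after POLE4 depletion, 2 of 7 tested members where 0.134% of all features were DE and lower. Sox1 was 2.668, 2.176 and 1.758 CPM in dPOLE4 and 8.338, 5.575 and 3.839 CPM in Ctrl, 2.77-fold apart (log2 -1.47, SE 0.255, adjusted p = 0.00856). The groups did not overlap, and Ctrl replicate 1 was the highest. Pax6 was 14.1, 14.12 and 13.3 CPM in dPOLE4 and 23.31, 23.03 and 21.21 CPM in Ctrl (log2 -0.69, SE 0.0898, adjusted p = 0.0014), with no overlap. Sox11 at 72.87, 70.53 and 73.18 CPM also lay below all Ctrl libraries (-0.43, SE 0.0626, adjusted p = 0.00268), under the fold threshold, and Nes was 242.5, 245.5 and 251.1 CPM against 258.9 to 282.3 CPM in Ctrl. The Sox1 call was lost without Ctrl T60 replicate 1 (-1.11, adjusted p = 0.021) and without dPOLE4 T60 replicate 1 (-1.60, adjusted p = 0.0264), 2 (-1.47, adjusted p = 0.0482) or 3 (-1.34, adjusted p = 0.0551). The Pax6 call was lost without dPOLE4 T60 replicate 1 (-0.70, adjusted p = 0.015) or 3 (-0.66, adjusted p = 0.0116) and with all libraries in the fit (-0.70, adjusted p = 0.0105).

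In MCM2-2A cells, Sox1 and Sox11 were lower after POLE4 depletion at T24, where 1.02% of all features were DE. Sox1 was 5.955, 7.991 and 6.044 CPM in dPOLE4 MCM2-2A and 10.45, 11.02 and 10.49 CPM in Ctrl MCM2-2A (log2 -0.70, SE 0.131, adjusted p = 0.00603). Sox11 was 8.268, 9.104 and 8.788 CPM against 14.67, 13.72 and 16.42 CPM (log2 -0.76, SE 0.112, adjusted p = 0.0012). Neither pair of groups overlapped. The Sox1 call was lost with all libraries in the fit (-0.70, adjusted p = 0.0156), without dPOLE4 MCM2-2A T24 replicate 1 (-0.62, adjusted p = 0.0337) or 3 (-0.64, adjusted p = 0.0218), and without Ctrl MCM2-2A T24 replicate 1 (-0.71, adjusted p = 0.0273), 2 (-0.67, adjusted p = 0.0476) or 3 (-0.70, adjusted p = 0.0184). Pax6 at 1.799, 2.882 and 1.557 CPM gave -0.91 (SE 0.221, adjusted p = 0.0247) and was not DE, but passed with no filter (-0.91, adjusted p = 0.000818) and with all libraries in the fit (-0.93, adjusted p = 0.00339).

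At T60 in MCM2-2A cells, Sox11 and Pax6 were lower after POLE4 depletion, with 2.25% of all features DE. Sox11 was 29.27, 26.87 and 29.81 CPM in dPOLE4 MCM2-2A and 55.56, 56.66 and 59.11 CPM in Ctrl MCM2-2A, 1.99-fold apart (log2 -0.99, SE 0.0774, adjusted p = 0.000335). Pax6 was 2.657, 1.915 and 2.706 CPM against 4.65, 4.563 and 4.193 CPM (log2 -0.88, SE 0.174, adjusted p = 0.0099). Both pairs of groups were apart. Nes at 152.5, 161.5 and 147.6 CPM lay below all Ctrl MCM2-2A libraries at 191.9, 213.1 and 224.3 CPM (-0.45, SE 0.0725, adjusted p = 0.00335), under the fold threshold, and Sox1 at 1.563, 0.9576 and 1.055 CPM gave -0.87 (SE 0.257, adjusted p = 0.059). The Sox11 call held in every refit at T24 and T60. The Pax6 call was lost with TMM factors from genes only (-0.88, adjusted p = 0.0101), without dPOLE4 MCM2-2A T60 replicate 1 (-0.94, adjusted p = 0.0194) or 2 (-0.74, adjusted p = 0.0439), and without Ctrl MCM2-2A T60 replicate 1 (-0.85, adjusted p = 0.0329), 2 (-0.85, adjusted p = 0.0413) or 3 (-0.92, adjusted p = 0.0387).

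After 96 h of treatment in self-renewing medium, 0 members were DE in either background by edgeR, where 0% of features were called in WT (2164 unadjusted, 25 by DESeq2) and 0.304% in MCM2-2A. Of the 14 values, 3 had an unadjusted p under 0.05. Sox11 was 8.075, 10.41 and 10.24 CPM in dPOLE4 MCM2-2A and 13.47, 16.78 and 16.33 CPM in Ctrl MCM2-2A, with no overlap (log2 -0.71, SE 0.142, adjusted p = 0.0493). The replicate numbers were taken to pair these libraries from the correlation of their deviations, not from the design. With the replicate block Sox11 was DE (-0.69, adjusted p = 5.52e-05), as it was by DESeq2 (-0.72, adjusted p = 0.00621) and with no filter (-0.71, adjusted p = 0.00143). In WT, Sox11 gave -0.53 (adjusted p = 0.249) and Nes -0.53 (adjusted p = 0.138).

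**Figure D3:**
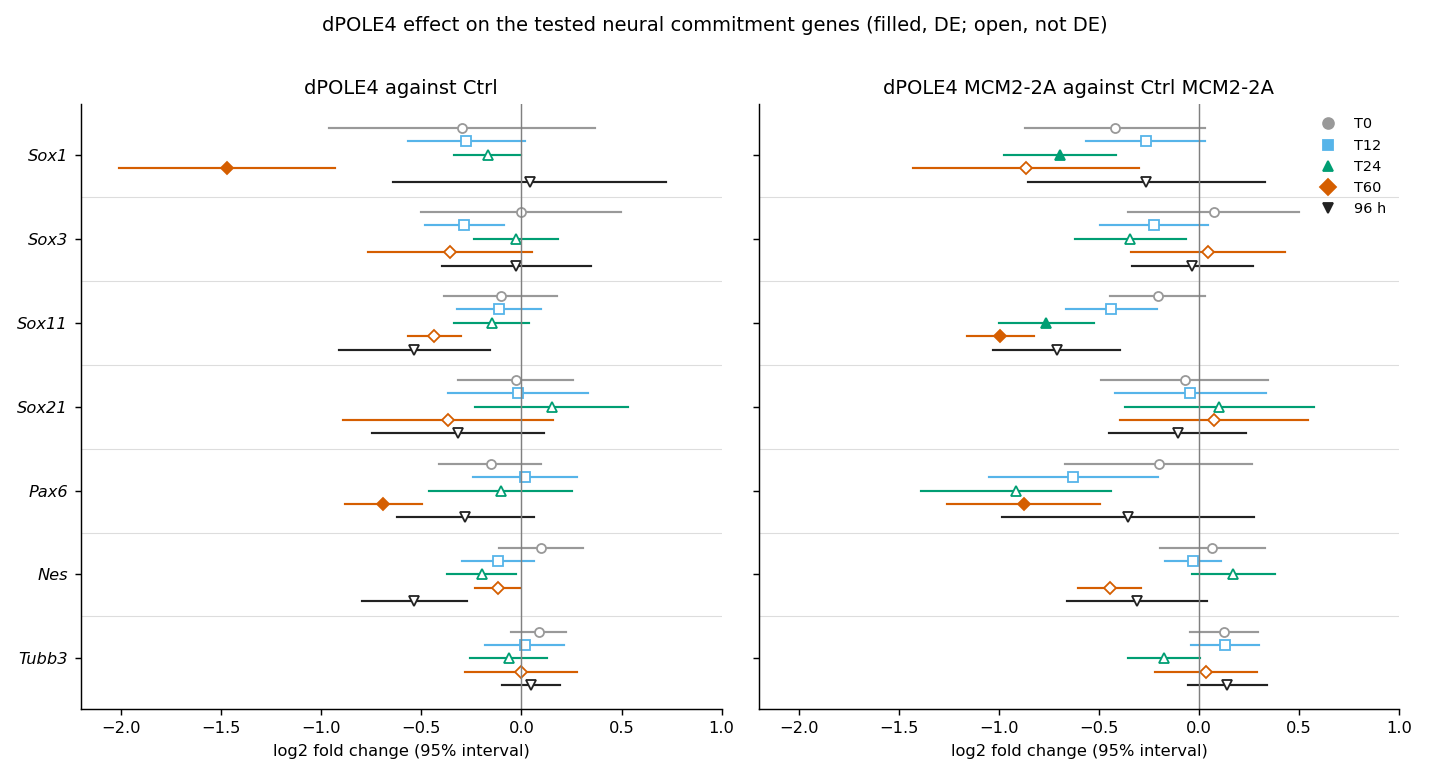
Log2 fold change of the 7 tested members after POLE4 depletion against the matched Ctrl in WT (left) and MCM2-2A (right) at T0, T12, T24, T60 and 96 h, with bars for the 95% interval and filled points for DE. The filled points are Sox1 and Pax6 at T60 in WT, and Sox1 and Sox11 at T24 and Sox11 and Pax6 at T60 in MCM2-2A, all below 0.

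An interaction term tested whether losing POLE4 acted differently on the members in WT and in MCM2-2A. None of the 7 members passed at any time by edgeR, where 0.00526%, 0.0159%, 0.0351% and 0.1% of features were DE at T0, T12, T24 and T60 and 0% at 96 h (686 unadjusted, 1 by DESeq2). Over T0 to T60 the 28 values lay between -0.83 and 0.61, with 8 at an unadjusted p under 0.05 and adjusted p from 0.0127 to 0.997. The smallest adjusted p was that of Sox11 at T60, for which the difference after POLE4 depletion was more negative in MCM2-2A by -0.55 (SE 0.0945, adjusted p = 0.0127). At T24, Sox11 passed with no filter (-0.62, adjusted p = 0.00464), and DESeq2 called 0 members at any time.

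Other neural genes were compared in the same way at T60. In WT, 1 of 11 tested patterning factors and 1 of 7 proneural and Notch genes were DE and lower after POLE4 depletion. Of the Sox relatives, progenitor structure and neuron structure genes, 0 of 3, 0 of 5 and 0 of 14 were DE by edgeR, with 2, 4 and 4 at an unadjusted p under 0.05. The patterning factor was the homeobox gene Msx1, chosen here after its values were seen, with 16.31 CPM after depletion against 27.14 CPM in Ctrl (-0.73, adjusted p = 0.00676). In MCM2-2A, 4 of 5 tested progenitor structure genes were lower, Cdh2 (-0.71), Msi1 (-0.61), Ncam1 (-0.60) and Vim (-0.60), where 2.25% of all features were DE in either direction. Of the other lists, Msx1 (-0.68) and the growth-cone gene Gap43 (-0.75) were lower, and 0 of 3 Sox relatives and 0 of 8 proneural and Notch genes were DE by edgeR (2 and 3 at an unadjusted p under 0.05). Several marker lists moved with these differences at T60. Pluripotency markers summed to 395.2 to 499.9 CPM in Ctrl MCM2-2A and 539.4 to 710.6 CPM in dPOLE4 MCM2-2A, with 2 of 6 DE and higher, Pou5f1 (0.64) and Tfcp2l1 (0.63). Endoderm markers summed to 1855 to 2078 and 1413 to 1526 CPM, with 2 of 8 lower, Foxa2 (-0.63) and Cubn (-0.70). Fibroblast markers summed to 137.2 to 159 and 58.71 to 72.88 CPM, with Col1a1 (-0.94) and Col1a2 (-1.72) lower of 3 tested. In WT, endoderm markers summed to 1361 to 1659 CPM in Ctrl and 996.4 to 1363 CPM in dPOLE4, and fibroblast markers to 323.6 to 451.7 and 263.4 to 281.1 CPM. Neural crest markers summed to 16.26 to 22.21 CPM in Ctrl and 12.89 to 15.55 CPM in dPOLE4 and to 8.998 to 9.675 CPM in Ctrl MCM2-2A and 7.761 to 8.118 CPM in dPOLE4 MCM2-2A, without overlap in either background. Mesoderm markers went from 19.28 to 23.07 CPM in Ctrl MCM2-2A to 26.57 to 34.05 CPM in dPOLE4 MCM2-2A, with 1 of 6 DE, Hand1 (0.93). Trophoblast markers went from 185.8 to 217.6 CPM to 223 to 297 CPM, with 0 of 4 DE by edgeR and 3 at an unadjusted p under 0.05. In WT both of these lists overlapped between dPOLE4 and Ctrl. At T60 no marker of these lists was at 0 over a whole group, and their part in the members' differences was not tested.

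**Figure D4:**
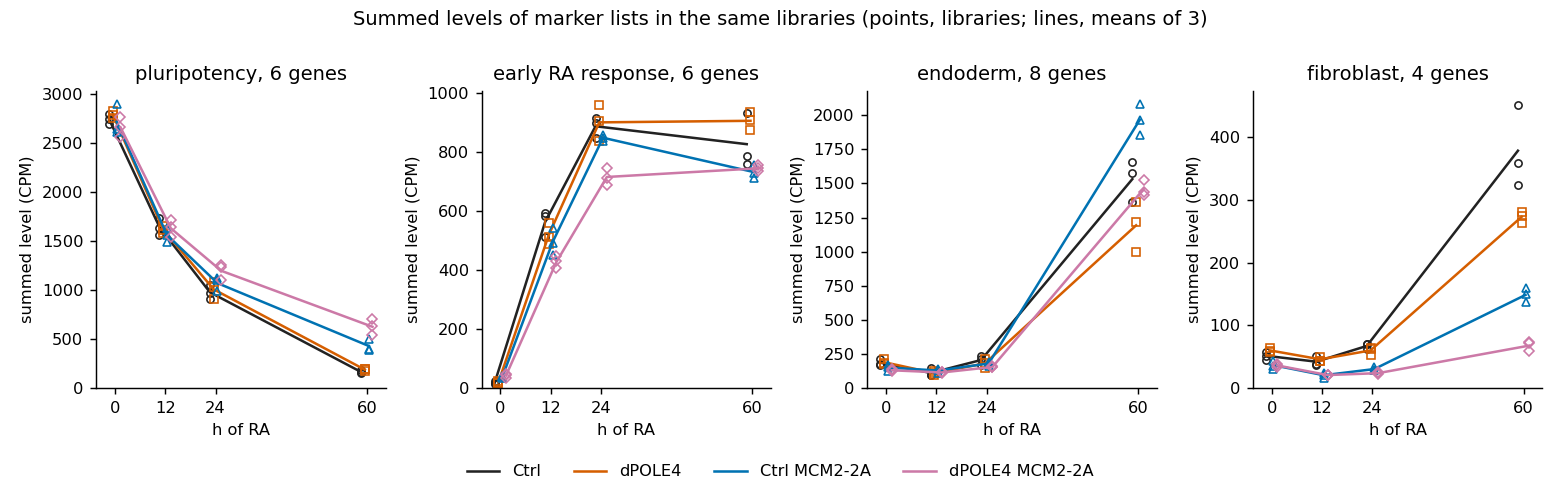
Summed CPM of marker lists for pluripotency, early RA response, endoderm and fibroblasts (linear axes from 0) in every library against hours of RA, with points for libraries, lines through means of 3 and colours for Ctrl, dPOLE4, Ctrl MCM2-2A and dPOLE4 MCM2-2A. At T60 the pluripotency sum is 150.3 to 181.4 CPM in Ctrl and 539.4 to 710.6 CPM in dPOLE4 MCM2-2A.

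The MCM2-2A background was set against WT with the same treatment. Pax6 was DE and lower in MCM2-2A in 10 of 10 such comparisons, Sox11 in 9, Nes in 7 and Sox1 in 3. Sox21 was lower in 6 and higher in 1, and Sox3 was lower in 2 and higher in 2. Tubb3 was DE in 0 of 10 (0 by DESeq2, with 8 at an unadjusted p under 0.05). Between Ctrl groups 18.9%, 14.5%, 17.3%, 16.9% and 15.7% of all features were DE at T0, T12, T24, T60 and 96 h, and between dPOLE4 groups 18.6%, 18.4%, 16.1%, 20.4% and 16.4%. Of 7 tested members, 4, 5, 4, 3 and 3 were DE between Ctrl groups and 4, 5, 4, 4 and 4 between dPOLE4 groups.

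The lower levels were present before RA. At T0, Sox11 was 12.93, 14.54 and 12.34 CPM in Ctrl MCM2-2A against 38.75 to 47.29 CPM in Ctrl (log2 -1.69, SE 0.1, adjusted p = 2.09e-07), the former lying apart from the latter. Sox21 was 4.325, 3.443 and 2.854 CPM against 8.954 to 11.86 CPM (-1.55, SE 0.171, adjusted p = 1.94e-05). Pax6 was 3.628, 3.596 and 3.22 CPM against 7.882 to 8.6 CPM (-1.27, SE 0.128, adjusted p = 9.94e-06). Nes was 47.67, 41.39 and 44.52 CPM against 100.9 to 121.3 CPM (-1.33, SE 0.0738, adjusted p = 1.46e-07). Between the dPOLE4 groups at T0 the same 4 genes gave -1.79, -1.59, -1.33 and -1.37, and these are the genes whose promoters are shown above, with Nes added. Sox1, Sox3 and Tubb3 overlapped between Ctrl and Ctrl MCM2-2A at T0. The position of a gene was compared as well, since whole segments can differ between clones. Genes of chromosome 14 had a median of 0.242 in MCM2-2A against WT at T0, and the 33 tested genes within 5 Mb of Sox21 had a median of -0.0675. The 35 tested genes within 5 Mb of Sox11 had a median of -0.125.

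Under RA the order of the members changed. Pax6 stayed lower by -1.78 at T12, -1.89 at T24 and -2.32 at T60 (SE 0.109, adjusted p = 1.88e-09) between Ctrl groups, and by -2.41, -2.72 and -2.51 between dPOLE4 groups. Sox11 was lower by -1.78, -1.32 and -0.78 between Ctrl groups and by -2.10, -1.94 and -1.34 between dPOLE4 groups. Nes was lower by -1.19 at T12 and -1.66 at T24 and at T60 by -0.36 (adjusted p = 0.000474), under the fold threshold, between Ctrl groups. Between dPOLE4 groups Nes was DE and lower by -1.09, -1.31 and, at T60, -0.68 (adjusted p = 1.87e-06). Sox1 was lower between Ctrl groups at T24 (-0.70, SE 0.0849, adjusted p = 3.48e-06) and at T60 (-1.47, SE 0.253, adjusted p = 0.000264). At T60 it was 1.661, 2.492 and 2.301 CPM in Ctrl MCM2-2A. Sox1 gave -1.24 at T24 between dPOLE4 groups, which was DE, and -0.87 at T60. The latter was not DE but passed with no filter (-0.88, adjusted p = 0.00456). Sox3 was lower at T12, at 10.43, 13.69 and 11.16 CPM against 20.09 to 23.49 CPM in Ctrl (-0.86, SE 0.117, adjusted p = 0.000244). Between Ctrl groups Sox21 at T12 was lower by -0.92 (adjusted p = 0.00352 by edgeR). That call was lost without Ctrl MCM2-2A T12 replicate 1 (-0.85, adjusted p = 0.0229) or 2 (-0.96, adjusted p = 0.0103). Between dPOLE4 groups Sox21 at T12 was lower by -0.93 (adjusted p = 6.23e-05 by edgeR), a call that held in every refit. At T60, Sox21 was higher in dPOLE4 MCM2-2A than in dPOLE4 (0.99, adjusted p = 0.00304), a call lost without dPOLE4 MCM2-2A T60 replicate 1 (0.87, adjusted p = 0.0137) or 2 (0.97, adjusted p = 0.0111) or dPOLE4 T60 replicate 3 (0.82, adjusted p = 0.017).

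At 96 h Sox3 was higher in MCM2-2A cells, at 11.52, 13.18 and 10.84 CPM against 4.612, 5.066 and 4.88 CPM in Ctrl (log2 1.30, SE 0.151, adjusted p = 2.87e-05), and by 1.29 between dPOLE4 groups. Sox21 was 9.441, 7.272 and 7.538 CPM against 38.1, 28.17 and 20.38 CPM (-1.85, SE 0.207, adjusted p = 2.26e-05), and Pax6 was 4.72, 3.916 and 2.67 CPM against 12.48, 15.7 and 12.78 CPM (-1.90, SE 0.198, adjusted p = 1.29e-05). None of these groups overlapped. Nes, lower in MCM2-2A at T0, was not DE at 96 h. It gave -0.0483 between Ctrl groups, with means of 37.5 CPM in Ctrl MCM2-2A and 39.8 CPM in Ctrl, and 0.169 between dPOLE4 groups. Sox11 gave -0.55 between Ctrl groups (adjusted p = 0.0148) and -0.73 between dPOLE4 groups (adjusted p = 0.00576). The latter call was lost without dPOLE4 MCM2-2A 96 h replicate 1 (-0.63, adjusted p = 0.0123), 2 (-0.81, adjusted p = 0.011) or 3 (-0.78, adjusted p = 0.0161) and without dPOLE4 96 h replicate 1 (-0.58, adjusted p = 0.0154) or 2 (-0.73, adjusted p = 0.0202).

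**Figure D5:**
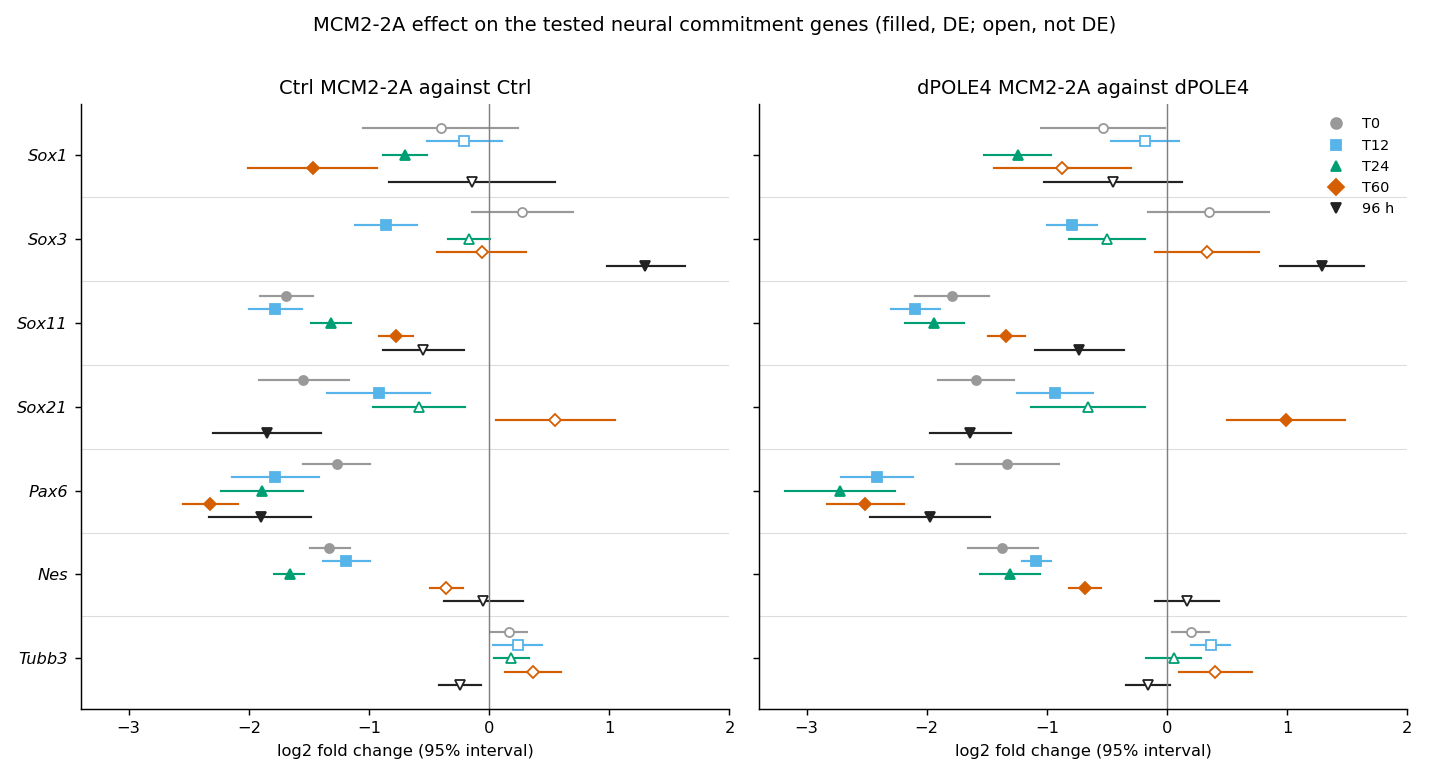
Log2 fold change of the 7 tested members in MCM2-2A against WT between the Ctrl groups (left) and between the dPOLE4 groups (right) at T0, T12, T24, T60 and 96 h, with bars for the 95% interval and filled points for DE. Pax6 lies between -2.72 and -1.27 in all 10 comparisons, and Tubb3 has no filled point.

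The change from T0 itself was compared between kinds of cells. Between Ctrl MCM2-2A and Ctrl, 4 of 7 members differed at T60, where 9.1% of all features did. Sox11 and Nes rose more in Ctrl MCM2-2A, by 0.88 (SE 0.119, adjusted p = 3.32e-05) and 0.94 (SE 0.105, adjusted p = 3.98e-06), from lower T0 levels to T60 levels that were still below Ctrl. Sox21 differed by 2.07 (SE 0.297, adjusted p = 6.73e-05), since at T60 its mean was below the 10.04 CPM of T0 in Ctrl and not below T0 in Ctrl MCM2-2A. Pax6 rose less by -1.08 (SE 0.157, adjusted p = 8.12e-05). Sox1 at T60 was not DE here but passed with no filter (-1.07, adjusted p = 0.00216). At T12 and T24, 0 members passed by edgeR, with 0.303% and 2.18% of features DE. Sox3 at T12 gave -1.13 (SE 0.228, adjusted p = 0.0263) and passed by DESeq2 (-1.14, adjusted p = 0.000601) and with no filter (-1.17, adjusted p = 1.9e-06), and Sox21 at T24 passed with no filter (0.96, adjusted p = 0.006).

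Between dPOLE4 and Ctrl the change from T0 differed for 0 members at T12, T24 and T60 by edgeR or DESeq2, with 3 of 21 values at an unadjusted p under 0.05. Of all features, 0% passed at T12 (1811 unadjusted, 0 by DESeq2), 0% at T24 (611 unadjusted, 0 by DESeq2) and 0.0104% at T60. Sox1 at T60 gave -1.19 (SE 0.447, adjusted p = 0.273), which passed with no filter (-1.18, adjusted p = 0.00586), and Pax6 gave -0.55 (SE 0.142, adjusted p = 0.169). Between dPOLE4 MCM2-2A and Ctrl MCM2-2A, 0% of features passed at T12 (737 unadjusted, 0 by DESeq2) and T24 (1219 unadjusted, 5 by DESeq2) and 0.254% at T60. Sox11 rose less in dPOLE4 MCM2-2A at T60 by -0.80 (SE 0.12, adjusted p = 0.00512). This call held without dPOLE4 MCM2-2A T60 replicate 3 or T0 replicate 3 and was lost without any of the other 10 libraries, with values of -0.85 to -0.75 and adjusted p up to 0.0267.

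Over the 16 groups of the RA experiment, most neighbours in the order of group means overlapped for every member except Sox11. Such overlap was not counted over all features, so the counts describe the members only. Of 15 neighbouring pairs, 11 overlapped for Sox1, 12 for Sox3, 7 for Sox11, 13 for Sox21, 10 for Pax6, 8 for Nes, 11 for Tubb3 and 15 for Neurog2. The highest groups were Ctrl T24 for Sox1 (17.69 CPM), Ctrl T12 for Sox3 (21.54 CPM), Ctrl T0 for Sox21 (10.04 CPM), dPOLE4 MCM2-2A T0 for Tubb3 (120.4 CPM) and Ctrl T60 for Sox11, Pax6, Nes and Neurog2. For Sox11 and Nes, Ctrl T60 lay above dPOLE4 T60 and dPOLE4 T60 above Ctrl MCM2-2A T60, each without overlap.

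The genes whose log2 CPM ran most like each member over the 48 RA libraries, among 20382 genes, are given by Pearson's r as a description, since the libraries share time points, clones and depth. They were Sept11 (0.906), Trib2 (0.898) and Pak1 (0.889) for Sox1, and Pptc7 (0.904), Mroh2a (0.887) and Tmem181a (0.884) for Sox3. For Sox11 they were Igf2bp3 (0.979), Adgrl2 (0.965) and Pls3 (0.958), and for Sox21 they were T (0.887), Lemd1 (0.87) and 4930425L21Rik (0.867). Pax6 ran with Llgl1 (0.95), Zkscan17 (0.943) and H3f3b (0.942), Nes with Efnb2 (0.976), Tnc (0.974) and Acta2 (0.973), and Tubb3 with Ahsa1 (0.989), Gm20509 (0.985) and Cdyl2 (0.983). Among the members themselves, r was 0.928 for Sox11 and Nes, 0.787 for Sox11 and Pax6 and 0.667 for Sox1 and Sox3.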

How the data were processed

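RNA was depleted of rRNA and made into strand-specific libraries, and per the labels reads were trimmed with cutadapt 4.2 and mapped with STAR to mm10 (GRCm38). The authors deposited raw counts per gene and repeat subfamily (TEcount, multimapping reads kept) in a table for each experiment, of 56633 features. Counts were used as deposited. Groups came from the sample titles, and 0 columns were left unused. Each comparison used edgeR 4.0.16 (R 4.3.3) on its own groups with filterByExpr (minimum count 10, minimum total 15) and TMM factors of those groups. Quasi-likelihood tests were followed by Benjamini-Hochberg adjustment over all features. For the CPM levels, TMM factors were taken over all libraries of an experiment and were 0.911 to 1.07 in the RA experiment. DESeq2 1.42.0, other scalings, filters, a replicate block and each library left out in turn were alternatives. Intervals cover 95%. The fits were tested on simulated counts with known changes. A 1.5-fold change was called DE in 38.8% of cases for T60 against T0 in Ctrl. For the interaction of POLE4 depletion and background at T60 this was 22.4%, so changes of that size can be missed. A 2-fold change was called in 85.1% and 76.1% of cases, respectively. Symbols and positions were taken from GENCODE M21, while the authors counted on M25, and 55141 genes matched.

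The members and lists were chosen with earlier results of these data known. Named besides the members were up to 3 DE genes per neural list in Ctrl T60 against T0, up to 2 in dPOLE4 MCM2-2A against Ctrl MCM2-2A at T60, and the 3 most alike genes per member. From the neural lists, Ncam1 and Vim at T60 in MCM2-2A and Msx1 at T60 in WT were also named, outside this rule. Replicate numbers were taken to pair the libraries at 96 h, from the data and not the design. There the correlation of deviations of every pair was 0.108 to 0.337 in 4 of 4 comparisons. Some results of the neural lists are not reported here.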

Additional observations from a re-analysis of the deposited data

Results flagged for a closer look

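In 5 cases a member's change from T0 to T60 differed between kinds of cells by the interaction term of the edgeR fit. Between Ctrl MCM2-2A and Ctrl, Sox11 (0.884), Sox21 (2.07) and Nes (0.942) had the more positive change in Ctrl MCM2-2A and Pax6 (-1.08) the more negative. Between dPOLE4 MCM2-2A and Ctrl MCM2-2A, Sox11 (-0.796) had the smaller rise in dPOLE4 MCM2-2A. Background and clone cannot be told apart in the first 4 cases.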

How the results depend on the processing

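Of 135 member values called DE, 116 kept the call in every refit, 5 lost it under an alternative and 18 with a library left out, and the cause was not tested. No value past the p threshold in any fit, or at least 0.5 in size, changed direction. For 46 of 54 comparisons the count of DE members kept within 1.5 times under every alternative. At T24 against T12 in Ctrl MCM2-2A it was 2, and 4 with no fold threshold. After POLE4 depletion at T60 it was 2 in WT, and 1 with all libraries in the fit, and 2 in MCM2-2A, and 1 with TMM factors from genes only. From 0 it became 1 at 96 h in MCM2-2A under DESeq2, no filter and the replicate block, 1 for the T12 change of Ctrl MCM2-2A against Ctrl under DESeq2 and no filter, and 1 with no filter for their T24 change, for the T60 change of dPOLE4 against Ctrl and for the POLE4 effect between backgrounds at T24. With a library left out, the counts ran from 2 to 5 for T12 against T0 in Ctrl, 1 to 3 and 1 to 2 for POLE4 depletion in MCM2-2A at T24 and T60, 0 to 2 in WT at T60, and 0 to 1 for the changes from T0 of Ctrl MCM2-2A against Ctrl at T24 and dPOLE4 MCM2-2A against Ctrl MCM2-2A at T60.

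With the replicate block 143 values were DE against 135 without it. At 96 h, where the numbers were taken to pair the libraries, the block changed no other call than Sox11 in MCM2-2A (-0.69). In the RA experiment the numbers were not taken to pair the libraries, since in 0 of 36 comparisons every pair's correlation was over 0.1 (-0.145 to 0.251), although in 13 of the 36 all 6 libraries correlated best with their own number, a hint from the data and not the design. Neurog2, with 0 to 9 counts in a library, was below the filter in every comparison, so no change in it could be tested.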
